A study of Mus musculus with 55 samples.

Results

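The regions described here are the stretches of open chromatin in wild type (WT) mouse liver that had no counterpart in the liver of TCPOBOP-treated Setd8-LKO mice and that lay outside Lamin A/C islands. They were chosen from the deposited lists by overlap alone. A WT ATAC-seq peak was taken when not even 1 bp of it was covered by a Setd8-LKO ATAC-seq peak or by a WT Lamin A/C island. Of 27307 WT accessible regions, 7187 met this rule and are called lost regions below. Another 19474 WT regions outside the islands were overlapped by a Setd8-LKO region and are called kept regions. For reference, 181 regions were lost and 465 were kept inside the islands, and 3194 Setd8-LKO regions outside the WT islands had no WT counterpart and are called gained.

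Both groups were livers of male mice 45 to 50 days old. Setd8-LKO mice carry a floxed exon 7 of the gene of the histone H4 lysine 20 methyltransferase Setd8 (Setd8lox/lox) and a Cre recombinase driven by the albumin promoter, which is active in hepatocytes, and they received 3 mg/kg of TCPOBOP, an agonist of the nuclear receptor CAR and a liver mitogen, 24 h before the livers were taken. The WT controls are labelled untreated, although the study's methods name corn oil and its reporting form names DMSO as the control injection. ATAC-seq, which reads accessible DNA by the insertion of a transposase, covered 3 WT and 5 Setd8-LKO samples, and RNA-seq covered 5 untreated WT, 4 Setd8-LKO + TCPOBOP and 5 WT + TCPOBOP livers. Genotype and treatment change together in every comparison with Setd8-LKO and cannot be told apart, except where RNA of WT + TCPOBOP livers is set beside it.

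Open chromatin marks promoters and the more distant enhancers at which transcription factors bind DNA. Active promoters and enhancers usually carry acetylation of lysine 27 of histone H3 (H3K27ac). CTCF and the cohesin ring, of which Smc3 is a subunit, hold the bases of chromatin loops, and Lamin A/C islands mark chromatin at the nuclear lamina. In the male mouse liver, pulses of growth hormone activate the factor STAT5, which binds the letters TTCNNNGAA and drives genes such as Igf1.

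The sequences below are examples of lost regions and are not typical of them. Only 12.4% of lost regions had STAT5 letters in a 300-base window around the middle. The first 4 were picked after their values were seen, as the lost regions of highest accessibility with STAT5 letters in the 300-base window. Each also had to have as nearest gene one with lower RNA in Setd8-LKO. The call of Apol7e was lost without any 1 library other than untreated WT replicate 3. Each is the 300-base window around the middle of the region on the plus strand of GRCm38/mm10, with the STAT5 letters in capitals. The Igf1 region at chr10:87787623-87787858 is intergenic, 70407 bp upstream of the gene, and its window is chr10:87787591-87787890. The Olig1 region at chr16:91255777-91256006 is intergenic, 13766 bp upstream, with the window chr16:91255742-91256041. Its letters lie past the end of the region, within the window. The Apol7e region at chr15:77706833-77707161 lies in an intron, 7928 bp downstream of the start, with the window chr15:77706847-77707146, which holds the letters in 2 places. The Tmem260 region at chr14:48475942-48476194 lies in an annotated intron, 3359 bp upstream of the nearest start of Tmem260, with the window chr14:48475918-48476217. The last sequence, chr5:145344949-145345248, is the window of the lost region at the promoter of Cyp3a57, a cytochrome P450 gene. Its capitals mark a copy, on the other strand, of the letters TGACCTTTG, part of the repeat that HNF4 and related nuclear receptors read.
Igf1: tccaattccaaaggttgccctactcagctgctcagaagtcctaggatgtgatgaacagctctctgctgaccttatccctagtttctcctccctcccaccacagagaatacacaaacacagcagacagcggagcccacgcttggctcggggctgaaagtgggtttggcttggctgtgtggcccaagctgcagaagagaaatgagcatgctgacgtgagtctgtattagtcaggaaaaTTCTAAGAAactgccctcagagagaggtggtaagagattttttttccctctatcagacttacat
Olig1: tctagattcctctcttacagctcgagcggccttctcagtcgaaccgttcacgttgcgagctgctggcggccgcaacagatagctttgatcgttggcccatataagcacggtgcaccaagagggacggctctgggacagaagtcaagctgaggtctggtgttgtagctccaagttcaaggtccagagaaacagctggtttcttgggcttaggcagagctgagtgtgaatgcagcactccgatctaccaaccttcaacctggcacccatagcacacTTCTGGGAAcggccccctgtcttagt
Apol7e: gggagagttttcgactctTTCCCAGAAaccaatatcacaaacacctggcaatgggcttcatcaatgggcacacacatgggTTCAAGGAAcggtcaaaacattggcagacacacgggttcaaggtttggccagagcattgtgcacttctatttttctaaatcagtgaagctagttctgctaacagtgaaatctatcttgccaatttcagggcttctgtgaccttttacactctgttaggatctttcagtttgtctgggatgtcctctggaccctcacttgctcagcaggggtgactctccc
Tmem260: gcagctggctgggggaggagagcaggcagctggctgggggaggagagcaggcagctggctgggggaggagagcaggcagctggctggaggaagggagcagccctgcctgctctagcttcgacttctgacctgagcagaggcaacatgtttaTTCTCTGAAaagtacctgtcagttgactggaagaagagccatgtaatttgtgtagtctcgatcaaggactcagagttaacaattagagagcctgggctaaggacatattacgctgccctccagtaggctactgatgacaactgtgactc
Cyp3a57: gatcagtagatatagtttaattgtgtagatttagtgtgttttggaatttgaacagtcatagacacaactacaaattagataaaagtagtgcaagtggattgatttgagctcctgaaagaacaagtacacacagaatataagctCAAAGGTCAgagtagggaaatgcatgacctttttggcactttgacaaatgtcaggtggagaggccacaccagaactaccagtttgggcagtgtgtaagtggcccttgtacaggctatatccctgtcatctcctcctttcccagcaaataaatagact

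Because the ATAC-seq lists chose the regions, their ATAC-seq values are given only as a description. The fold enrichment of the lost regions over background, as called in WT, ranged from 2.07 to 17.2 with a median of 6.94, against a median of 7.71 for kept regions. The median -log10 p of the peak call was 23.2 for lost and 30.8 for kept regions, and the median length was 221 bp against 330 bp. The lost regions were thus weaker and shorter peaks as a group, but some were strong. The highest fold enrichments were found at 5 regions without any overlapping mark, and none of them lay at a promoter. They were 17.2 at chr11:38618795-38619023, 1382831 bp upstream of Tenm2, a synaptic adhesion gene, and 15.8 at chr10:99981969-99982187, 33443 bp upstream of Kitl, which encodes the ligand of the Kit receptor. The remaining 3 were 15.0 in an intron 8647 bp downstream of the start of Aasdhppt, 14.8 in intergenic DNA with Gm5447 as the nearest gene and 14.6 in intergenic DNA with the cadherin gene Cdh11 as the nearest.

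Loss followed the strength of the WT peak. Over all 27307 WT regions 27% had no Setd8-LKO overlap, which is the quantity the rule itself uses, so nothing is read from it. When the regions outside the islands were sorted by -log10 p into 10 classes of equal size, 63.1% of the weakest class (1683 of 2667) and 1.88% of the strongest class (50 of 2666) were lost. No values of single libraries were used here with which signal could be compared, and the part of the calling threshold in the loss was not tested. For this reason, the main comparisons of position, marks and letters below are also given for the 1503 lost regions with a -log10 p of 28 or more, beside the 12129 kept regions above the same limit. They are called strong regions, and the limit was chosen after the data were seen. Above it the lost share still fell, from 21.2% at a -log10 p of 28.2 to 30.7 to 1.88% in the strongest class. Strong kept regions were thus stronger peaks than strong lost ones, and the part of strength in these comparisons was not tested.

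**Figure D1:**
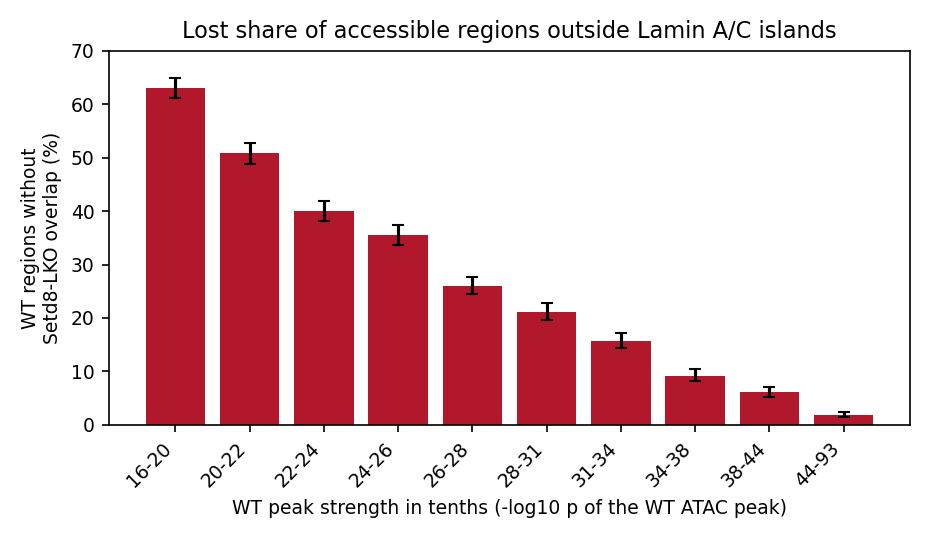
Share of WT accessible regions outside Lamin A/C islands without Setd8-LKO overlap (y axis, percent) in 10 classes of the -log10 p of the WT peak (x axis). Bars are shares and error bars are 95% Clopper-Pearson intervals, and the share falls at each step, from 63.1% in the weakest to 1.88% in the strongest class.

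Few regions sat at the edge of the rule. The smallest gap between a lost region and a Setd8-LKO peak was 5 bp and the median gap was 13206 bp, and 199 lost regions (2.77%) had a Setd8-LKO peak within 500 bp. The smallest overlap of a kept region was 13 bp. The 20 lost regions nearest the limit had a median fold enrichment of 5.86 and the 20 kept regions nearest to it had 6.92. The lost regions were also far from the lamina, with a median distance of 2032 kb to the nearest WT Lamin A/C island, and only 11 lay within 10 kb of one. For kept regions the median distance was 1774 kb.

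There is 1 peak list per assay and group, so the shares below have no replicates. They carry 95% Clopper-Pearson intervals that cover counting error only, and no test across regions was made.

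Lost regions were found less at promoters and more inside genes and between them. Of the 7187 regions, 2321 (32.3%, interval 31.2 to 33.4) lay within 1000 bp of a transcript start, against 41.7% of kept regions. Introns held 33.6% of lost and 28.6% of kept regions, and intergenic DNA held 30.8% and 27.9%. Among strong regions, introns held 35.5% and 26.9% and intergenic DNA 36.6% and 27%. Coding exons away from starts held 1.45% of lost and 0.770% of kept regions. The median distance to the start of a protein-coding gene was 7314 bp for lost and 5437 bp for kept regions.

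The distance from promoters was larger among strong regions. Starts took 24.6% of the strong lost regions and 44.5% of the strong kept regions. Put the other way, 6.40% of strong regions at starts were lost (369 of 5763), but 14.4% of strong regions away from starts (1134 of 7869). Among the weakest regions, with -log10 p under 22, this order was not seen, as 60.2% were lost at starts and 55.9% away from them. Gained regions were still farther from promoters, with 16.1% at starts. The share of regions lost varied little along the genome, from 24.1% on chromosome 1 to 30.3% on chromosome 11, and was 20.4% (82 of 401, interval 16.6 to 24.7) on the X chromosome.

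H3K27ac, which the rule did not use, was present in WT at 2320 lost regions (32.3%) and at 49.3% of kept regions. Most of it was at starts, where 71.7% of lost and 81.5% of kept regions were marked. Away from starts 13.5% of lost regions (657 of 4866) and 26.4% of kept regions (2996 of 11359) carried it. Among strong regions away from starts the shares were 10.1% and 28.1%. Most lost regions away from promoters, the strong ones included, therefore had no H3K27ac peak in WT.

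Where H3K27ac was present, the fate of the mark differed between promoters and distal sites. Of all accessible regions outside the islands with H3K27ac in WT, 13% had no H3K27ac in Setd8-LKO. Among the lost regions this was so for 391 of 2320 (16.9%, interval 15.4 to 18.4) and among kept regions for 12%. At starts, the mark was gone from only 88 of 1663 lost regions (5.29%), close to the 4.29% of kept regions. Away from starts, it was gone from 303 of 657 lost regions (46.1%, interval 42.3 to 50.0), against 873 of 2996 kept regions (29.1%). Distal regions that dropped out of the ATAC-seq list thus also lacked the acetylation more often than distal regions that stayed. The intervals do not overlap, but they cover counting error only and not the spread between livers.

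This difference was larger in strong regions. Among strong distal regions with H3K27ac in WT, the mark was gone from 83 of 114 lost regions (72.8%, interval 63.7 to 80.7) and from 540 of 1892 kept regions (28.5%, interval 26.5 to 30.6). Among the weakest distal regions the shares were 35.8% and 29.5%, and their intervals overlap. New H3K27ac was seen at 4.01% of the lost regions that had none in WT and at 11.3% of such kept regions. Where a region had an H3K27ac peak in both lists, its enrichment was little changed, with a median log2 ratio of Setd8-LKO over WT of -0.04 in lost and -0.07 in kept regions.

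**Figure D2:**
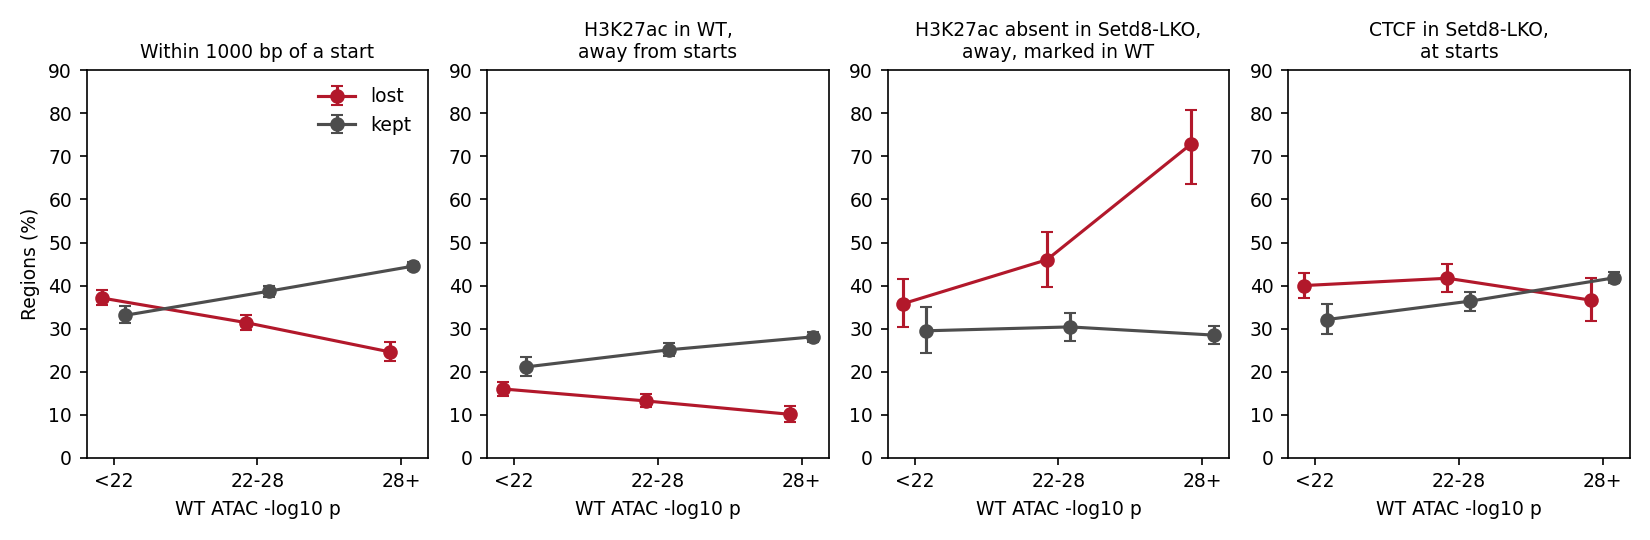
Features of lost (red) and kept (grey) regions in 3 classes of WT peak strength (x axis, -log10 p); the y axis gives the share of regions in percent, with 95% Clopper-Pearson intervals. From left to right: position at a start, H3K27ac in WT away from starts, absence of H3K27ac in Setd8-LKO among distal regions marked in WT, and CTCF in Setd8-LKO at starts. In the panel on absent H3K27ac, lost regions go from 35.8% to 72.8% and kept regions from 29.5% to 28.5%.

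Single regions were picked by the WT enrichment of a lost H3K27ac peak, and they do not illustrate the distal or the strong regions. Their -log10 p ran from 19.2 to 24.2. Those at Fam91a1, Ttc39c and Rabggta lay within 1000 bp of a start. The lost regions under the strongest WT H3K27ac peaks without a Setd8-LKO H3K27ac peak lay in introns within 1741 bp of a start. One at chr4:133751680-133751870, in an intron of Arid1a, 1741 bp downstream of its start, lay under an H3K27ac peak of 62.1-fold enrichment. Arid1a encodes a subunit of the SWI/SNF chromatin remodelling complex. Others were at Smim27 (56.7-fold), Fam91a1 (55.5-fold), Ttc39c (55.4-fold) and Rabggta (53.6-fold), the last of which encodes an enzyme subunit that attaches lipid to Rab proteins. The accessibility of these 5 regions was low in WT, with fold enrichments between 2.88 and 6.32, and none had CTCF, while those at Arid1a and Smim27 had Smc3 in Setd8-LKO. Only Ttc39c of the 5 genes is in the RNA table. Its normalised read counts were 14988, 13624, 11461, 11100 and 11062 in the WT libraries and 991, 947, 891 and 1333 in the Setd8-LKO libraries. The groups do not overlap, and the log2 fold change was -3.58 with a standard error (SE) of 0.20 (edgeR quasi-likelihood test, adjusted p = 4.4e-06).

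CTCF and cohesin were rarer in lost than in kept regions when strong regions at all places were compared. Strong lost regions also lay at starts less often (24.6% against 44.5%), and the part of place in this was not tested. CTCF in WT and Smc3 were not split by place. CTCF was present in WT at 413 lost regions (5.75%) and at 5.81% of kept regions, but among strong regions at 2.99% of lost (interval 2.19 to 3.99) and 5.19% of kept ones (4.80 to 5.6). In Setd8-LKO it was present at more of both, at 1208 lost regions (16.8%) and 20.3% of kept regions (10.7% and 21.6% of strong ones), even though the lost regions no longer had an ATAC-seq peak there. At starts CTCF covered 40.1% of lost and 39.6% of kept regions in Setd8-LKO, and away from starts 5.71% and 6.49%. The difference was larger for strong distal regions, with 2.29% of lost (26 of 1134) and 5.37% of kept regions (362 of 6735). For strong regions at starts the shares were 36.6% of lost (interval 31.7 to 41.7) and 41.8% of kept regions (40.5 to 43.2), and these intervals overlap. A CTCF peak in Setd8-LKO alone was found at 901 lost regions, and 840 of these (93.2%) also had Smc3 there. Where CTCF was called in both groups, the median log2 ratio of its enrichment was 2.1 in lost and 2.09 in kept regions. Peak lists of both groups were called after the reads of ChIP-seq samples had been reduced to a common number, and the part of antibody yield in this ratio was not tested.

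Smc3 covered 13.6% of lost and 15.1% of kept regions in WT, and 25.2% and 33.6% in Setd8-LKO. Among strong regions it covered 7.92% of lost (interval 6.6 to 9.40) and 15.1% of kept regions (14.4 to 15.7) in WT, and 17.2% (15.4 to 19.2) and 36.5% (35.6 to 37.3) in Setd8-LKO. Among the lost regions with the strongest WT CTCF, one at chr2:103547131-103547422 had a CTCF enrichment of 29.9 in WT and 16.7 in Setd8-LKO. It lay within 1000 bp of an annotated transcript start, but 18888 bp upstream of the nearest protein-coding start, that of Abtb2. At the other two, at the starts of Pfkfb3, a regulator of glycolysis, and Ccdc71l, the enrichment was 26.6 and 26.4 in WT and 123 and 111 in Setd8-LKO. All 3 had CTCF and Smc3 in both groups, so loss of the ATAC-seq call went with a lower CTCF enrichment at the first and a higher one at the others.

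Heterochromatin marks were rare in these regions. The rule left out WT Lamin A/C islands, and the paper reports that H4K20me3 overlaps such domains, so nothing is read from this rarity. H4K20me3, the trimethylated form of the mark that Setd8 starts, covered 52 lost regions in WT and 142 (1.98%) in Setd8-LKO, where it covered 2.2% of kept regions. Among strong regions the shares in Setd8-LKO were 2.59% and 2.42%. Lamin A/C islands of Setd8-LKO reached only 24 lost regions (0.334%, interval 0.214 to 0.496) and 48 kept ones (0.246%). The 181 regions lost inside WT islands differed in several of these features. They had H4K20me3 in WT in 18.2% of cases, H3K27ac in 14.4%, and no protein-coding start within 50 kb in 52.5%, against 16.1% of lost regions outside the islands.

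Letters read by transcription factors were searched on both strands of 300-base windows around each region, 7186 of them lost. The sets of letters were HNF4 CAAAGTCCA, a DR1-type repeat unit TGACCTTTG, FOXA TGTTTAC, C/EBP TTGCNNAA, STAT5 TTCNNNGAA, HNF6 ATCGAT, NFI TTGGCA, AP-1 TGANTCA, ETS CCGGAAGT, NRF1 GCGCATGCG, the GC box GGGCGG read by Sp factors, NFY CCAATCA, YY1 AAGATGGC, the E-box CACGTG, PU.1 GAGGAAGT, TEAD CATTCCA, CRE TGACGTCA, the D-box TTATGTAA, and the CTCF consensus with at most 1 mismatch. The ETS and PU.1 letters share the core GGAAGT. A region is said to hold letters when its window does, and the window of a short region reaches past the region. A match is a description of the sequence and does not show that a factor was bound.

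Of these sets, STAT5 letters had the highest ratio of the share in strong lost to that in strong kept windows. They were present in 888 of 7186 lost windows (12.4%, interval 11.6 to 13.1), 8.86% of kept windows, 8.55% of gained windows and 9.85% of all WT windows. Among strong regions the shares were 15.4% of lost (232 of 1503, interval 13.6 to 17.4) and 8.97% of kept windows (interval 8.46 to 9.49). When the windows were moved by 2000 bp, the shares of strong regions were 8.92% and 8.69%, which differ by less than their counting intervals. The letters also lay closer to the middle of lost regions, with 45.3% of matches in strong lost regions within 50 bp of the centre and 35.5% in strong kept regions. A stricter form, TTCCNGGAA, added after the data were seen, was in 3.19% of strong lost and 1.69% of strong kept windows.

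The same windows can also be counted the other way, as loss by the presence of the letters. This is a second reading of the same counts and not separate evidence. Of strong distal regions with STAT5 letters 22% were lost (199 of 904, interval 19.4 to 24.9), and of those without them 13.4% (935 of 6959, interval 12.6 to 14.3). At starts the shares were 7.95% and 6.28%, with overlapping intervals. At all places, regions with a -log10 p of 22 to 28 were lost in 44.2% with and 33.7% without the letters. Under 22 the shares were 61.2% (interval 56.7 to 65.5) and 57.1% (55.6 to 58.5), and these intervals overlap. Lost regions with STAT5 letters had H3K27ac in WT less often than those without, in 23.3% against 33.6%, but they also lay at starts less often (19.7% against 34.1%). Away from starts 96 of 713 with the letters and 561 of 4152 without them had it, both near the 13.5% of all distal lost regions. Where distal ones had it, the mark was gone from 56 of 96 regions (58.3%, interval 47.8 to 68.3) with the letters and from 247 of 561 (44.0%, interval 39.9 to 48.2) without them, and these intervals overlap slightly. In strong distal lost regions the shares were 75% (21 of 28) and 72.1% (62 of 86), and in distal kept regions of any strength 34.9% (120 of 344) and 28.4% (753 of 2650).

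**Figure D3:**
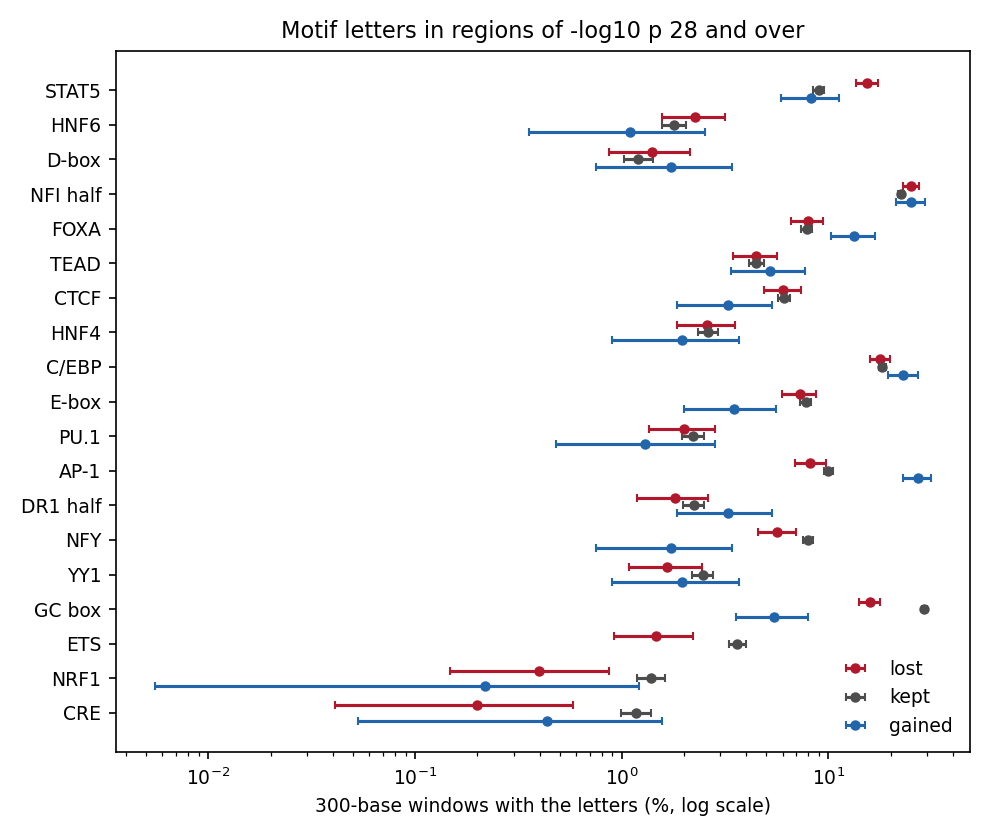
Share of 300-base windows (x axis, percent, log scale) that hold the letters of each factor (y axis) in lost, kept and gained regions with a -log10 p of 28 or more; bars are 95% Clopper-Pearson intervals, and ETS in gained regions, at 0 of 460, is not drawn. STAT5 stands at 15.4% in lost and 8.97% in kept regions, and AP-1 at 27% in gained and 8.18% in lost regions.

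Letters typical of promoters were rarer in strong lost regions. The GC box was in 15.9% of strong lost and 29.1% of strong kept windows, NFY in 5.66% and 7.97%, ETS in 1.46% and 3.62%, NRF1 in 0.399% and 1.39%, and CRE, read by CREB, in 0.200% and 1.17%. Over all WT windows these letters were in 25%, 6.39%, 2.92%, 1.16% and 1.07%. Strong lost regions lay at starts less often, which moves with these letters, and at starts alone ETS was in 4.34% of lost and 7.55% of kept windows and the GC box in 46.9% and 55.2%. The mean number of CpG pairs per window was 7.30 in strong lost and 10.6 in strong kept regions.

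Letters of the main hepatocyte factors differed between lost and kept regions away from starts, and little when starts were included. Among distal regions of any strength, HNF4 letters were in 2.61% of lost (interval 2.18 to 3.10) and 3.6% of kept windows (3.27 to 3.96), FOXA letters in 8.28% (7.52 to 9.09) and 10.4% (9.86 to 11), and C/EBP letters in 19.9% (18.8 to 21) and 23.3% (22.5 to 24.1). Among strong distal regions the shares were 3.09% and 3.91% for HNF4, 8.82% and 11% for FOXA and 20.5% and 24.0% for C/EBP, in the same order but with overlapping intervals. Among strong regions at all places, HNF4 letters were in 2.59% of lost and 2.61% of kept windows, FOXA letters in 7.92% and 7.83%, C/EBP letters in 17.8% and 18.2%, and CTCF letters in 6.05% and 6.09%. Over all WT windows they were in 2.35%, 7.49%, 18% and 7.82%. AP-1, a factor of growth and stress responses, had its letters in 8.18% of strong lost, 10.0% of strong kept, 27% of strong gained and 9.65% of all WT windows. STAT5 letters were thus more frequent in strong lost than in strong gained windows (15.4% and 8.26%), and AP-1 letters less frequent.

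RNA was compared between 4 Setd8-LKO + TCPOBOP and 5 untreated WT livers. The table holds only the 3900 genes that the authors selected as changed on these same libraries, so each count below is of listed genes and is read beside the share over all of them. Of 3726 genes tested, 34.6% were lower and 50.5% higher in Setd8-LKO at an adjusted p under 0.05 and at least a 2-fold change. The summed raw counts of listed genes, which are not the sequencing depth, ran from 11238950 to 12780869 in WT and from 5734065 to 8231255 in Setd8-LKO. Kmt5a, the gene of Setd8, had normalised counts of 613, 567, 761, 563 and 715 in WT and 1341, 1465, 1338 and 1313 in the libraries labelled Setd8-LKO. It was therefore higher where the labels say it is deleted (log2 fold change 1.08, SE 0.14, edgeR adjusted p = 0.00045). The call was lost with DESeq2 size factors, and the counts were not split by exon, so exon 7 itself was not measured.

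RNA of bulk liver mixes all cell types, and fewer cells of a type cannot be told apart from less RNA per cell. Of 10 hepatocyte markers 5 are listed (Alb, Cps1, Cyp2e1, Pck1, Ttr) and all 5 fell, with summed normalised counts of 871890 to 1532435 in WT and 403275 to 555334 in Setd8-LKO. Of 9 cholangiocyte markers 8 are listed and 6 rose (sums of 519 to 751 and 2113 to 9121), and of 12 stellate or fibroblast markers 6 are listed and all 6 rose (2435 to 3588 and 6265 to 14312). Of 15 macrophage markers 2 are listed and 1 rose (83 to 298 and 410 to 632), neither of 2 listed neutrophil markers (6 to 100 and 71 to 121) passed the test, and no endothelial marker is listed. No listed marker sum was at 0. The part of cell composition in the ATAC-seq, ChIP-seq and RNA results was not tested.

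A lost region lay within 1000 bp of a start of 2664 genes, of which 466 are listed and 458 were tested. Of these, 234 were lower (51.1%, interval 46.4 to 55.8) and 183 were higher (40.0%). Kept regions also marked listed genes with lower RNA, with 46.1% lower and 45.4% higher of 1294 genes. The 333 genes with a lost and no kept region at a start were lower in 42.9% and higher in 46.2%, which is close to the 43.3% and 47.7% of the 1169 genes with kept regions only. Of the 125 genes with both kinds at a start, 72.8% (interval 64.1 to 80.4) were lower and 23.2% higher. By definition these genes have several regions at their starts, unlike many genes of the other groups. The part of the number of regions in this share was not tested. Genes with a gained region at a start were 25% lower and 66.2% higher. With size factors of DESeq2, which assume that most listed genes are unchanged, the median log2 fold change of all listed genes moved by -0.82, and the split of calls moved from 234 lower and 183 higher to 246 and 60 at lost starts and from 1289 and 1881 to 1464 and 766 overall. With the sequencing run as a term of the model, the counts at lost starts were 221 and 175.

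RNA was lower more often in genes with several lost regions around them. Each region was assigned to the nearest start within 100 kb. Genes with 1 lost region were lower in 43.3% and higher in 47.2% of 661 cases. The share that was lower was 57.1% with 2 regions, 68.2% with 3 and 77.1% (27 of 35, interval 59.9 to 89.6) with 4 or more, where only 11.4% were higher. The number of kept regions moved in the same direction over a smaller range, from 35.6% with 1 to 56.2% with 4 or more. To hold the number of regions nearly fixed, genes with 4 to 6 regions in all were split by how many were lost. They were lower in 43.5% of cases with none lost (69 genes), 56.4% with under 50% lost (172 genes) and 65.8% with 50% or more lost (76 genes), and the intervals of the first and last overlap slightly (31.6 to 56.0 and 54.0 to 76.3).

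**Figure D4:**
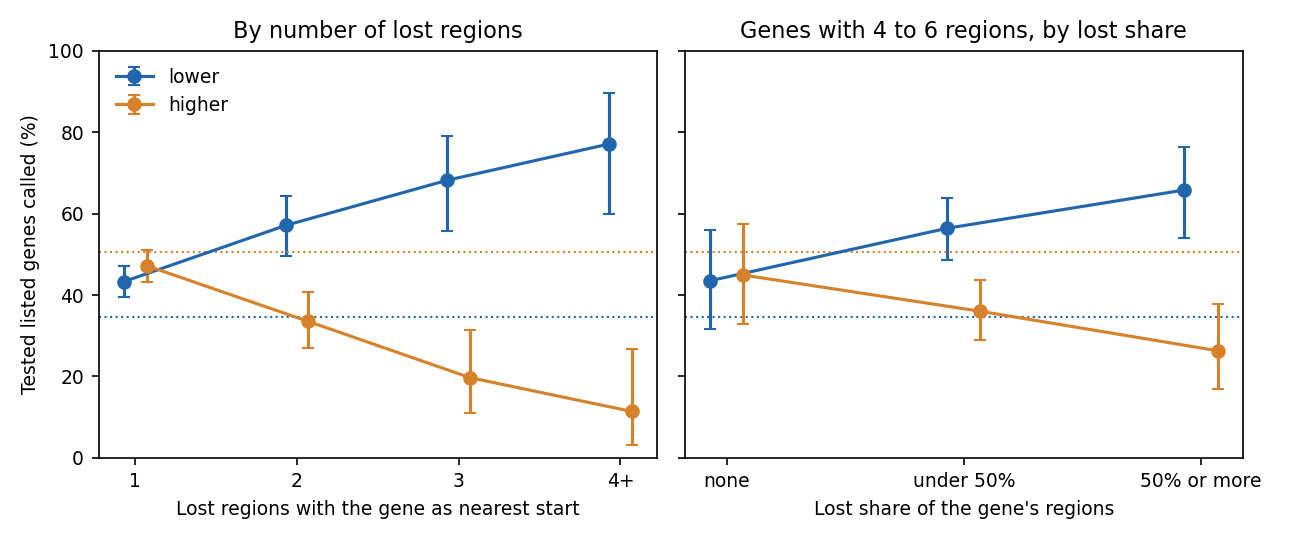
Share of tested listed genes called lower (blue) or higher (orange) in Setd8-LKO (y axis, percent, 95% Clopper-Pearson intervals) by the number of lost regions (left) and, for genes with 4 to 6 regions, by the share of them that was lost (right). Dotted lines mark the shares over all tested genes, 34.6% and 50.5%; with 4 or more lost regions 77.1% were lower.

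Loss of H3K27ac went with lower RNA whether or not the region was lost. Of 78 tested genes nearest to a distal lost region whose H3K27ac was gone, 75.6% were lower, and of 200 nearest to such a kept region 76.0% were lower. Where a distal lost region kept its H3K27ac the share was 64.4% of 87 genes, and 58.6% of 367 genes for kept regions.

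The share of lost regions in the gene groups of the liver lay near that over all genes. Over all genes, 6602 of 24698 assigned regions (26.7%) were lost. Genes that depend on growth hormone had the highest share of the 13 pathway groups, 29 of 76 regions (38.2%, interval 27.2 to 50.0), of which 7 of 32 strong ones (21.9%, against 10.6% over all genes). Genes of amino acid and urea metabolism followed with 32.4% (46 of 142), hepatocyte transcription factors with 31.6% (42 of 133), plasma proteins with 30.4% (51 of 168) and cytochromes P450 with 30.4% (49 of 161). The lowest shares were at genes of the CAR response, 20.8% (10 of 48), and of bile acids and transport, 22.4% (13 of 58). All of these intervals include the share over all genes except that of the growth hormone group, whose lower bound of 27.2% lies just above it, and the intervals were not adjusted for the 13 groups. Genes were placed in groups with earlier results of these data known.

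RNA of the same groups fell or rose as follows, beside 34.6% lower and 50.5% higher over all tested genes. Of 19 tested growth hormone genes 15 fell and none rose, with a median log2 fold change of -3.48. In amino acid and urea metabolism 28 of 30 fell, in plasma proteins 34 of 36, in cholesterol and fatty acid synthesis 26 of 27 and in bile acids and transport 9 of 9. In glucose and glycogen metabolism 11 of 13 fell, as did 4 of 5 hepatocyte transcription factors and the 1 tested clock gene. Cytochromes P450 were mixed, with 24 lower and 20 higher of 52, as were genes of phase II conjugation, with 15 lower and 13 higher of 29. In fatty acid oxidation 1 was lower and 3 were higher of 5. All 18 tested genes of the CAR response rose, as did 23 of 24 cell cycle genes. The cell cycle group had 9 lost regions of 35 (25.7%), so lost regions were also found at genes whose RNA rose.

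The receptor, the hormone and the inhibitor of growth hormone signalling each had lost regions. Ghr encodes the growth hormone receptor, and 2 of its 10 regions were lost, no more than the 26.7% over all genes. They lie at chr15:3608192-3608351 and chr15:3620518-3620683, 24700 and 37026 bp upstream of its start. The nearer one had lost H3K27ac as well. Ghr normalised counts were 11016, 11312, 7907, 7317 and 8860 in WT and 1712, 1592, 1936 and 1974 in Setd8-LKO. Every Setd8-LKO library was below every WT library (log2 fold change -2.36, SE 0.19, edgeR adjusted p = 2.7e-05).

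Igf1, the hormone through which growth hormone acts on the body, had 5 of 9 regions lost. The strongest is the region printed first above, with a fold enrichment of 12.4. The others were 62285 and 25906 bp upstream and 40652 and 65557 bp downstream of the start, and 3 of the 5 held STAT5 letters. Both downstream regions kept H3K27ac. Igf1 counts were 8505, 9857, 8725, 6388 and 9045 in WT and 2962, 2648, 3300 and 3225 in Setd8-LKO. The groups do not overlap, and the log2 fold change was -1.49 (SE 0.17, edgeR adjusted p = 0.00023). Socs2, a feedback inhibitor of the pathway, had 2 of 5 regions lost and 1 with STAT5 letters. Its counts ran from 216 to 495 in WT and from 69 to 177 in Setd8-LKO (log2 fold change -1.29, SE 0.33, edgeR adjusted p = 0.042), but this call was lost without any 1 Setd8-LKO library and without WT replicate 1, 3 or 4.

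Several male-biased targets of growth hormone fell further than Ghr and Igf1, and others did not pass the test. Nudt7, a peroxisomal coenzyme A hydrolase, had 5 of 8 regions lost, of which 3, between 27318 and 39884 bp upstream, had also lost H3K27ac. Nudt7 counts were 19453, 20546, 16929, 17027 and 10760 in WT and 578, 482, 597 and 636 in Setd8-LKO, a log2 fold change of -4.89 (SE 0.25, edgeR adjusted p = 2.4e-06). Slco1a1, an organic anion transporter, had both of its regions lost. The one at chr6:141947780-141947938, 818 bp upstream of the start, held STAT5 letters and had lost H3K27ac, while the other had H3K27ac in Setd8-LKO alone. Slco1a1 counts were 9968, 9746, 7656, 6760 and 9028 in WT and 385, 337, 1045 and 286 in Setd8-LKO (log2 fold change -4.07, SE 0.42, edgeR adjusted p = 0.0001). All Setd8-LKO libraries of both genes were below those of WT.

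Hsd3b5, a steroid dehydrogenase, had 2 of 3 regions lost, 15263 and 40304 bp upstream. Its counts were 6989, 8072, 2739, 2914 and 2579 in WT and 5, 2, 5 and 2 in Setd8-LKO, so the RNA was near the limit of counting in the latter (log2 fold change -10.32, SE 0.63, edgeR adjusted p = 6.2e-06). Hsd3b, Mup, Cyp4a12 and Serpina1 genes have near-identical copies among which reads can be split, and their values are uncertain. Cyp7b1, an oxysterol hydroxylase, and Elovl3, a fatty acid elongase, each had 1 region lost and had log2 fold changes of -4.94 (edgeR adjusted p = 8.7e-05) and -5.41 (edgeR adjusted p = 0.017), and that of Elovl3 was not called without Setd8-LKO replicate 4. Mup20, which encodes a major urinary protein, had 3 of 7 regions lost and a log2 fold change of -1.23 that was not called (edgeR adjusted p = 0.322). The P450 genes Cyp2d9 (-1.21), Cyp4a12a (-3.42) and Cyp4a12b (-2.76) were not called either, although Mup20 and both Cyp4a12 genes were called without Setd8-LKO replicate 3. Cyp2d9 had 1 of 8 regions lost, Cyp4a12a had its only region lost and Cyp4a12b had no region. Some genes of the group had no lost region, as Selenbp2 (-3.54) and Igfals (-2.77), which fell. STAT5 letters were not more frequent in the lost regions of this group, at 5 of 29 (17.2%), than in its kept regions, at 12 of 47 (25.5%), with wide intervals of 5.85 to 35.8 and 13.9 to 40.3.

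**Figure D5:**
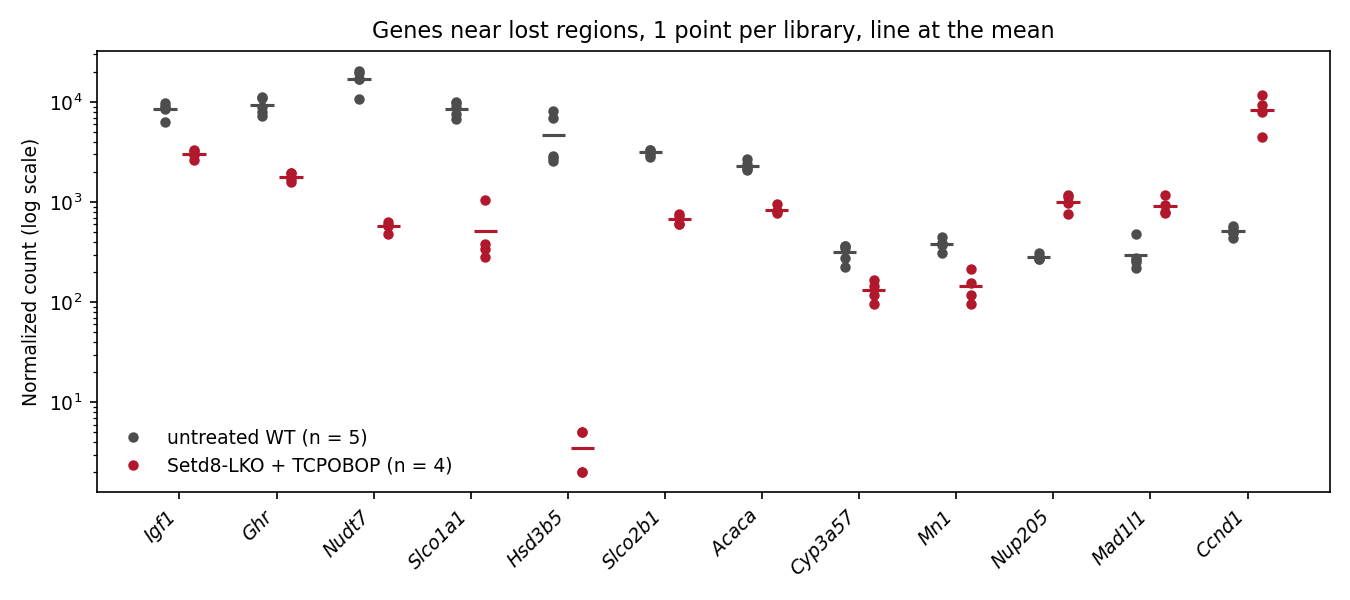
Normalised read counts (y axis, log scale) of 12 genes near lost regions in 5 untreated WT libraries (grey) and 4 Setd8-LKO + TCPOBOP libraries (red), with 1 point per library and a line at the mean. The groups do not overlap for any of the 12 genes, 9 are lower in Setd8-LKO and Nup205, Mad1l1 and Ccnd1 are higher.

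At annotated transcript starts, the 10 lost regions of highest fold enrichment at genes with lower RNA ran from Cyp3a57 (11.7) to Clec2h (8.56), with Slco2b1 at 9.03. Slco2b1, another organic anion transporter, had a lost region over an annotated transcript start inside the gene, at chr7:99664606-99665058. This lies far from the start of the gene record, which is on the minus strand and begins at chr7:99711340. The region overlaps a coding exon and had the highest -log10 p of all lost regions (60.8). Slco2b1 counts were 2825, 2980, 3330, 3210 and 3345 in WT and 732, 607, 766 and 608 in Setd8-LKO (log2 fold change -2.21, SE 0.15, edgeR adjusted p = 9.3e-06). Cyp3a57 had its only 2 regions lost, 1 of them the promoter printed above, 47 bp upstream of the start. Its counts were 362, 346, 277, 226 and 361 in WT and 118, 96, 147 and 168 in Setd8-LKO (log2 fold change -1.25, SE 0.22, edgeR adjusted p = 0.0042). In both genes the groups are fully separated, although Cyp3a genes are alike in sequence and reads may be shared.

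Of the remaining 8 such genes, Acpp, which encodes prostatic acid phosphatase, fell most among those with counts in every library, from 84 to 225 in WT to 3 to 9 in Setd8-LKO (log2 fold change -4.59, edgeR adjusted p = 7.8e-05). Clec2h, a C-type lectin gene, had counts of 688, 462, 551, 52 and 345 in WT and 2, 0, 0 and 0 in Setd8-LKO, and its lost promoter region at chr6:128662240-128662567 had lost H3K27ac. Porcn, which encodes the acyltransferase that lipid-modifies Wnt proteins, fell by 1.77 on the log2 scale and kept H3K27ac over its lost promoter region. Mfsd13a and Ube2cbp also kept the mark and fell by 1.32 and 1.11, the region of Mfsd13a lying at a transcript start inside the gene. Gm7298 (-3.73), which resembles other genes in sequence, Arhgap6 (-1.54) and Eif2s3y (-1.04) had no H3K27ac peak there. The region of Arhgap6 lies at a transcript start inside the gene. The call of Arhgap6 was lost without any 1 Setd8-LKO library and without WT replicate 3 or 5, that of Eif2s3y without Setd8-LKO replicate 2 or 3 or WT replicate 5, and that of Ube2cbp without Setd8-LKO replicate 1 or 4 or WT replicate 3.

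A lost promoter region was also found at genes whose RNA rose. Nup205, a structural protein of the nuclear pore, had its only region lost at chr6:35177317-35177575, across its start, with H3K27ac in both groups and CTCF only in Setd8-LKO. Its counts were 282, 269, 282, 311 and 272 in WT and 990, 1168, 1130 and 757 in Setd8-LKO, so every Setd8-LKO library was higher (log2 fold change 1.84, SE 0.15, edgeR adjusted p = 3.3e-05). Nup205 also rose in WT + TCPOBOP livers (log2 fold change 2.52, edgeR adjusted p = 0.00075). Mogat1, an acyltransferase of triglyceride synthesis, had counts of 4, 0, 0, 3 and 4 in WT and 82, 70, 20 and 78 in Setd8-LKO (log2 fold change 4.64, SE 0.66, edgeR adjusted p = 0.00087). Grhl1 (1.70), Asb4 (2.13) and Epb41l4a (1.95) rose from counts of at most 40 in WT. The lost region of Epb41l4a lies near a transcript start inside the gene. Grhl1 and Epb41l4a were not called with DESeq2 size factors, nor Grhl1 without Setd8-LKO replicate 1 or 2 or WT replicate 2 or 4. Asb4 was not called with the sequencing run as a term of the model.

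Most of the 8 genes with the most lost regions are not listed as changed, and some of them have many regions in all. Foxp1, a forkhead repressor, was nearest to 9 lost and 6 kept regions. Gse1 and Wdr5, a subunit of histone methyltransferase complexes, had 8 lost regions each, beside 12 and 6 kept ones. Dgkd, Iqsec1, Lrp5, a Wnt co-receptor, Mad1l1 and Mn1 had 7 each, beside 2 or 3 kept ones. Only Mad1l1 and Mn1 of the 8 are in the RNA table, and they moved in opposite directions. Mad1l1, a spindle checkpoint gene, had counts of 254, 218, 274, 485 and 266 in WT and 778, 937, 1172 and 796 in Setd8-LKO (log2 fold change 1.62, SE 0.24, edgeR adjusted p = 0.0013), and was not called with DESeq2 size factors. Mn1, a transcriptional regulator, had counts of 444, 386, 308, 387 and 371 in WT and 117, 97, 214 and 157 in Setd8-LKO (log2 fold change -1.37, SE 0.24, edgeR adjusted p = 0.0036). Their log2 fold changes in WT + TCPOBOP were 2.78 and -1.07, against the same untreated libraries.

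Within the gene groups, the listed genes with the most lost regions are described next, beside 26.7% of regions lost over all genes. Acaca, the first enzyme of fatty acid synthesis, had 5 of 8 regions lost. Its counts were 2404, 2195, 2113, 2679 and 2175 in WT and 808, 970, 809 and 784 in Setd8-LKO, which do not overlap (log2 fold change -1.46, SE 0.14, edgeR adjusted p = 7.6e-05). Insig1, a brake on cholesterol synthesis, lost 3 of 9 (a share near that over all genes) and fell by 2.06 on the log2 scale, and Ppara, the receptor that turns on fatty acid oxidation, lost 4 of 11 and fell by 1.53. Abcc6, a transporter, lost 3 of 4 and fell by 2.55, and the plasma protein genes Gc and Apoh, with 4 and 3 lost regions, fell by 1.08 and 1.54. Pck1 and G6pc, enzymes of glucose production, lost 2 regions each and fell by 1.5 and 2.23, the former not called without Setd8-LKO replicate 1 or 2. Shmt1, an enzyme of serine and glycine metabolism, lost all 4 of its regions and is not listed.

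Some genes with lost regions rose. Ccnd1, the cyclin of entry into the cell cycle, lost 2 of 4 regions, while its counts went from 577, 555, 490, 504 and 439 in WT to 7988, 9323, 4450 and 11853 in Setd8-LKO (log2 fold change 4.03, SE 0.27, edgeR adjusted p = 9.1e-06). Mki67, a proliferation marker, lost 2 of 3 regions and rose by 4.17. Cyp3a11 and Abcc3, of the CAR response, lost 2 of 3 and 2 of 6 regions and rose by 1.35 and 1.04, but were not called with DESeq2 size factors, nor Abcc3 without Setd8-LKO replicate 4 or WT replicate 4. Glutathione transferase genes Gsta2 and Gstt2, with 3 and 2 lost regions, rose by 1.87 and 1.40 and were likewise not called with those factors. Loss of an accessible region near a gene was thus found together with RNA changes in both directions.

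The RNA of TCPOBOP-treated WT livers gives values for some of these genes with the agent alone, against the same untreated libraries. That table lists 719 genes, of which 679 were tested, 16.2% lower and 51.4% higher. Of 105 tested genes with a lost region at a start, 25 were lower (23.8%, interval 16.0 to 33.1) and 46 higher (43.8%). With TMM scaling these counts were 41 and 6, so the direction of this split depends on the scaling. The 25 lower genes numbered 16, 12, 11 and 10 without WT + TCPOBOP replicates 1, 3, 4 and 5 and 15 without untreated replicate 3 or 5. Among the genes above, the log2 fold changes in WT + TCPOBOP were -2.28 for Nudt7, -1.61 for Slco1a1 and -3.57 for Hsd3b5, beside -4.89, -4.07 and -10.32 in Setd8-LKO. Igf1, Ghr, Acaca and Slco2b1 were not analysed here in WT + TCPOBOP. Chromatin of WT + TCPOBOP livers was not analysed here.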

How the data were processed

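Peak lists: per the study's methods and the submitters' processing notes, the authors trimmed reads with Trimmomatic 0.39, aligned them to mm10 with HISAT2, removed duplicates and blacklisted reads, reduced ChIP-seq and CUT&Tag samples to a common read number (not stated for ATAC-seq), and called peaks with MACS2 2.2.7.1 and islands with SICER; deepTools 3.3.2 is also named. The deposited files hold 1 list per group, with the authors' fold enrichment (a ratio over background) and -log10 p per peak and a score per island. How replicates were pooled is not given in the sources used here. Over the whole series 55 samples were mapped to groups by their labels.

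RNA: the authors counted reads per gene and deposited raw counts and normalized counts rounded to whole numbers (a score here) for selected genes only. Another 114 columns with transformed values of these libraries were not used, nor were the authors' own p-values, FDR and fold changes. Raw counts were tested with edgeR 4.0.16 (R 4.3.3; glmQLFit, glmQLFTest, filterByExpr with a minimum count of 10), scaled by the authors' factors, with Benjamini-Hochberg adjustment over 55450 annotated gene records. Genes with an adjusted p under 0.05 and a log2 fold change of 1 or more in either direction were called. Nothing states that libraries of a group came from separate cages or litters. The smallest exact two-sided permutation p for 5 against 4 libraries is 0.0159. The test was checked on simulated data. The total count of a table of selected genes is not the depth, so the depth is unknown.

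Regions were matched by 1 bp overlap in Python 3.11.15 (numpy 2.4.6, pandas 2.3.3, scipy 1.17.1), with genes of the GENCODE annotation on GRCm38, and sequences were read with pysam 0.24.0. Intervals are 95% Clopper-Pearson. Members, gene lists and tests were chosen with earlier results of these data known; strength classes at 22 and 28 and the stricter STAT5 letters were added after the data were seen. Named regions are the 5 with the highest ATAC fold enrichment, the 10 and 5 highest at protein-coding starts with lower and higher RNA, the 5 with the highest H3K27ac enrichment in WT and none in Setd8-LKO, the 3 with the highest CTCF enrichment in WT, and the 8 genes with the most lost regions. Up to 4 genes per list with the most lost regions are named. Ghr, Socs2, Slco1a1, Cyp7b1, Elovl3, Selenbp2, Igfals, Mup20, Cyp2d9, Cyp4a12a, Cyp4a12b and the STAT5 sequences were chosen after their values were seen. Lost regions on sequences outside the named chromosomes (1) had no window. Some markers, genes and motif letters are not reported here. Replicate numbers did not pair the libraries.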

Additional observations from a re-analysis of the deposited data

Results flagged for a closer look

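Of 116 groups of 4 or 5 normalised counts that were examined, 12 had 1 library far from the others by Dixon's ratio, the gap to the nearest library over the range of the group. Chance gives about 1 in 20. In Setd8-LKO, Slco1a1 had 1045 in 1 library against 286 to 385 in the others (ratio 0.870), Cyp7b1 had 446 against 125 to 178 (0.835), Elovl3 had 316 against 5 to 18 (0.958) and Clec2h had 2 against 0 (1.00). Also in Setd8-LKO, Ppara had 1063 against 601 to 651 (0.892), Acaca had 970 against 784 to 809 (0.866) and Insig1 had 2834 against 1593 to 1684 (0.927). The near-identical Cyp4a12a and Cyp4a12b had 2375 against 85 to 168 (0.964) and 2230 against 144 to 271 (0.939) in Setd8-LKO. In untreated WT, Apol7e had 31 against 58 to 64 (0.818), Mad1l1 had 485 against 218 to 274 (0.790) and Mki67 had 64 against 13 to 26 (0.745).

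Fdft1, an enzyme of cholesterol synthesis with 2 lost and 2 kept regions, moved in opposite directions in the 2 RNA comparisons. Its log2 fold change was -1.40 in Setd8-LKO + TCPOBOP and 1.30 in WT + TCPOBOP, each against the same untreated libraries. This difference was not tested.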

How the results depend on the processing

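The number of lost regions lay between 4872 and 8717 with other overlap rules, gaps and thresholds, and was 1503 with a WT -log10 p of 28 or more. The share at a start (32.3%) was 35.7% with 50% reciprocal overlap, 30.7% with a -log10 p of 20 or more, 29.7% with equal numbers of top peaks, 24.6% at 28 or more, and 27.5% and 41.2% with windows of 500 and 2500 bp. The share with H3K27ac in WT (32.3%) was 37.9%, 30.7%, 29.7% and 24.3% under the first 4 of these, and the share of these that lost it (16.9%) was 15.3% with reciprocal overlap, 19% with equal numbers and 27.1% at 28 or more. Genes at lost starts numbered 136 lower and 106 higher with equal numbers of top peaks and 34 and 26 at 28 or more, where fewer regions enter. With DESeq2 size factors 60 were higher. Leaving out 1 library gave 206 to 229 lower and 156 to 186 higher. In WT + TCPOBOP the counts were 10 to 24 lower and 35 to 43 higher with 1 library left out, and 41 and 6 with TMM scaling. The cause was not tested.

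With the replicate number as a block (replicates 1 to 4) 176 were lower and 125 higher, against 216 and 172 without the block. Deviations of libraries with the same number correlated at -0.00881, -0.0911, -0.149 and 0.0639, and only number 4 matched itself best, so the numbers were not taken as pairs.

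For 58 named genes 889 results kept their call, 83 lost it, 13 gained one and 0 reversed. Calls of Apol7e, Kitl, Socs2, Arhgap6, Cyp3a25 and Eif2s3y were lost in several fits, and that of Elovl3 without Setd8-LKO replicate 4. With the sequencing run as a term, the calls of Apol7e, Arhgap6, Asb4, Eif2s3y, Kitl and Socs2 were lost. By the labels, run A held Setd8-LKO replicate 4 and untreated WT replicates 3 to 5, and run B the others of these groups. The depth of the RNA libraries is unknown, and single peak lists leave the spread between livers unmeasured.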
